A study of Mus musculus with 12 samples.

Results

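The genes described here encode the proteasome, the protease complex that degrades ubiquitin-tagged proteins, in cultured mouse splenic natural killer (NK) cells. They were chosen by symbol: of 11706 genes in the deposited expression table, 48 had a symbol made of Psm, a letter from a to g and a number, with pseudogene copies left out. One of the 48, Psmc3ip, encodes a partner in meiotic recombination and no proteasome subunit, and it is kept apart, which leaves 47 genes. These comprised 14 genes of the constitutive core, 20 of the regulatory particle and its chaperones, 5 of the immunoproteasome (Psmb8, Psmb9, Psmb10, Psme1 and Psme2) and 8 others (the caps Psme3 and Psme4, the Psme2 copy Psme2b, the inhibitor Psmf1 and the assembly chaperones Psmg1 to Psmg4). All 48 had a mean of at least 1 RPKM (reads scaled to gene length and library size), the limit for entering the tests, and none was at 0 in any library.

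The proteasome core is a barrel of stacked rings: the outer alpha rings (Psma genes) gate the entrance, and the inner beta rings (Psmb genes) hold the active sites. The regulatory particle caps the barrel, where its ATPases (Psmc genes) unfold substrates and its non-ATPase subunits (Psmd genes) bind and remove ubiquitin. Interferon gamma, which activated NK cells secrete, is known to induce the alternative catalytic subunits Psmb8, Psmb9 and Psmb10, which take the places of Psmb5, Psmb6 and Psmb7 in newly made cores, and the PA28 activator of Psme1 and Psme2. Cores of this kind are known for making peptides for MHC class I.

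NK cells from spleens of C57BL6 mice were expanded for 6 days in IL-15 at 10 ng/mL, purified on magnetic beads and, per the labels, stimulated for 18 hours with IL-2 at 330 U/mL and IL-12 at 10 ng/mL. PKM2 WT animals were heterozygous for NCR1Cre, which drives Cre from the NK cell gene Ncr1, and PKM2 KO animals carried the same Cre with PKM2fl/fl alleles, so that Cre was present in both genotype groups; PKM2 is an isoform of pyruvate kinase, made from the gene Pkm. Cells of the vehicle and TEPP-46 groups were wild type, and TEPP-46 is an activator of PKM2. Its dose reads 50 µM in the design text and 50 mM in the sample labels, and the vehicle is named as DMSO at 0.1% in one place and PBS in another. The PKM2 WT, vehicle and TEPP-46 groups had 3 libraries each and the PKM2 KO group 2, since the third sample labelled PKM2 KO was not analysed here. The labels call them biological replicates and do not say whether each came from its own animal.

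The libraries labelled PKM2 WT and PKM2 KO stood apart from the others in a way their labels do not give. Ifng, the interferon gamma gene, lay at 18.8 to 24.3 RPKM in these 5 libraries and at 797 to 1083 in the 6 of the drug experiment. Pkm had a mean of 206 ± 12.7 RPKM (SD, n = 3) in PKM2 WT libraries, 77.5 ± 1.27 (SD, n = 2) in PKM2 KO libraries and 1085 ± 107 (SD, n = 3) in vehicle. The authors' deposited table gives a Pkm mean ratio of knockout to wild type of 0.539 in the condition headed 2/12 and 0.396 in the one headed US, and here it was 0.377. For wild type, the same table gives a Pkm mean ratio of 2/12 to US of 5.78. Which condition the genotype libraries match was not tested. Differences between the experiments are therefore given as differences between libraries, where culture, stimulation and group cannot be told apart. All 8 NK cell markers were expressed, with a summed level of 5478 to 8508 RPKM over the 11 libraries, most of it Gzma, and none of the 5 B cell or 3 erythroid markers had a value. Single NK markers differed between the experiments: the mean in PKM2 WT and in vehicle was 386 and 42.5 RPKM for Klrb1c, 238 and 97.8 for Ncr1 and 218 and 664 for Prf1. The 7SL and 7SK RNAs took between 32.4% and 56.2% of the summed RPKM.

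The core and regulatory genes stood at about 2 times the level in the drug experiment as in the genotype experiment, and 4 of the 5 immunoproteasome genes differed far less, the exception being Psme2. Summed over the 14 core genes, the level was 1422, 1333 and 1323 RPKM in PKM2 WT libraries, 1266 and 1268 in PKM2 KO, 2743, 2798 and 2931 in vehicle and 2562, 2654 and 2728 in TEPP-46. For the 20 regulatory genes the sum was 901, 865 and 882 RPKM in PKM2 WT libraries, 829 and 823 in PKM2 KO, 1877, 1839 and 2000 in vehicle and 1731, 1781 and 1831 in TEPP-46. For the 5 immune genes it was 838, 821 and 814 RPKM in PKM2 WT libraries, 772 and 822 in PKM2 KO, 997, 1038 and 1056 in vehicle and 1035, 1040 and 1103 in TEPP-46. The drug libraries lay above the genotype libraries in all of these sums, without overlap, by very different amounts. The ratio of the vehicle mean to the PKM2 WT mean was 2.08 for core, 2.16 for regulatory and 1.25 for immune genes. With 7SL and 7SK taken out of each library's total, the core genes held 0.194% of the remaining RPKM in PKM2 WT libraries and 0.403% in vehicle, and the immune genes 0.117% and 0.147%. In bulk samples, fewer cells of a type and less RNA per cell cannot be told apart.

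**Figure D1:**
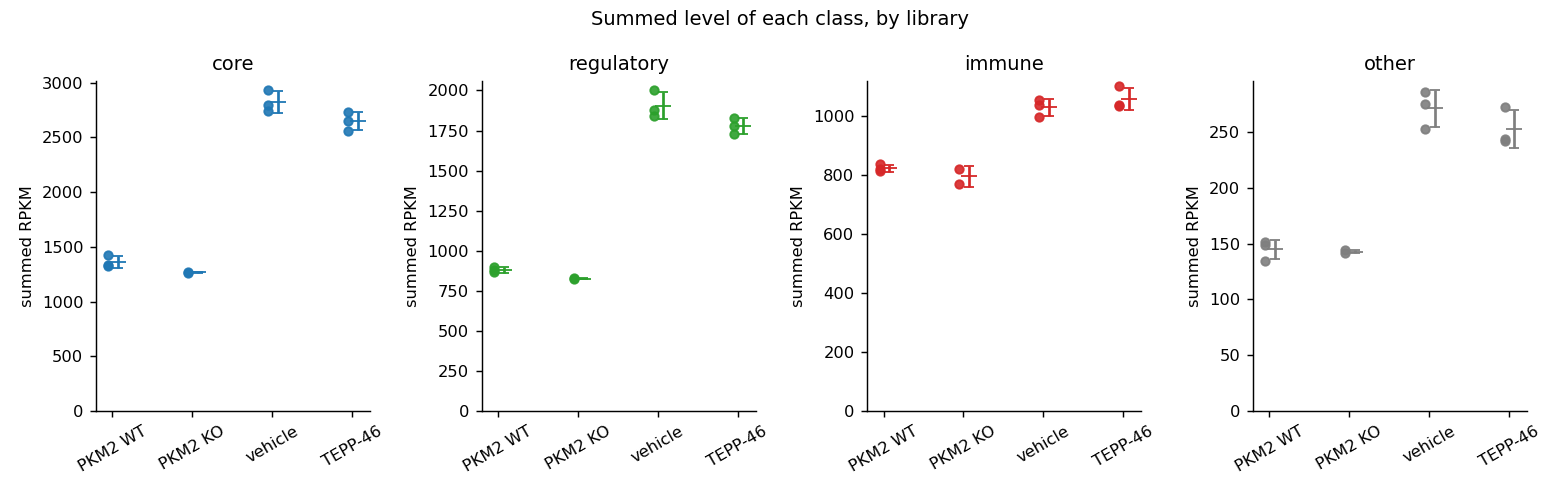
Summed RPKM (linear axis) of core, regulatory, immune and other proteasome genes in each of the 11 libraries, by group, with the group mean as a line. The core sums of the drug experiment sit between 2562 and 2931 RPKM, all above the genotype libraries at 1266 to 1422, while the immune sums run from 772 to 1103 over all groups.

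Within each class the levels per length spread widely. In PKM2 WT the core genes ran from Psma5 at 47.8 RPKM to Psmb1 at 158 RPKM, and the regulatory genes from Psmd9, an assembly chaperone, at 8.55 to Psmd8 at 96.3. In vehicle the core genes ran from Psma5 at 113 to Psma2 at 299.5 RPKM and the regulatory genes from Psmd9 at 19.1 to the ATPase Psmc3 at 174. Psma5 and Psmd9 thus kept the lowest place in their classes in both control groups, whereas the highest place changed. Among the immune genes Psmb9 was lowest and Psme1 highest in all 4 groups, at 86.8 and 285 RPKM in PKM2 WT libraries and at 77.5 and 325 in vehicle. The core assembly chaperone Psmg1 was the lowest of the 8 other genes in all 4 groups, at 4.64 RPKM in PKM2 WT.

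The libraries of vehicle and PKM2 WT, the controls of the 2 experiments, were compared first. Of the 47 genes, 45 were higher in vehicle and 0 lower at an adjusted p of 0.05 (limma, Benjamini-Hochberg over the 11142 genes tested), where 38.6% of all genes tested were higher and 36.7% lower. All 14 core genes rose, with a median log2 fold change of 1.18 (2.26-fold), and all 20 regulatory genes rose, with a median of 1.19 (2.29-fold), beside a median of 0.0038 over all genes tested. Fold changes are on the log2(RPKM + 1) scale. In 44 of the 47 genes the 6 libraries of the drug experiment lay above the 5 of the genotype experiment, without overlap, as did 34.8% of all genes tested. The exceptions were Psmb9, Psme2b and Psme4. T cell markers summed to 96.5 to 126 RPKM in PKM2 WT libraries, 18.5 to 35.6 in PKM2 KO and 12.9 to 16.1 in vehicle, from 3 of the 7 markers; most of the sum in PKM2 WT was Cd3g, with a mean of 85 RPKM there and 10.5 in PKM2 KO, while Trac had means of 14.6 and 11.8. Markers of granulocytes, basophils and mast cells, 4 of 6 with a value, summed to 78.3 to 183 RPKM in PKM2 WT libraries, 43.1 to 68.9 in PKM2 KO and 6.62 to 16.1 in vehicle. The sum of dendritic cell markers, 3 of 5 with a value, went the other way, at 4.19 to 6.72 RPKM in PKM2 WT libraries and 13.5 to 16.6 in vehicle. That rise was in Xcr1, with means of 1.67 and 11.7 RPKM. Zbtb46 had means of 1.82 and 1.37 and H2-Ab1 of 2.04 and 2.27. Of the 5 macrophage and monocyte markers only 1, Cd68, had a value. It lay at 16.1 to 18.2 RPKM in PKM2 WT libraries, 19.8 to 21.1 in PKM2 KO and 9.47 to 11.3 in vehicle. The part of these other cell types in the differences was not tested.

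By role, the 6 ATPases rose most, with a median log2 fold change of 1.25, and each was called. Psmc5, an ATPase of the ring that feeds the core, was at 28.2, 25.4 and 24.2 RPKM in PKM2 WT libraries, 24.5 and 27.2 in PKM2 KO, 86.2, 82.0 and 90.8 in vehicle and 70.9, 76.0 and 78.8 in TEPP-46. The lowest drug library stood at more than double the highest genotype library, and Psmc5 had the largest fold of the 47 genes, 1.70 ± 0.07 (SE) on the log2 scale (limma, adjusted p = 3.99e-08). The scaffold subunit Psmd1 was at 27.5, 26.3 and 28.4 RPKM in PKM2 WT libraries, 26.0 and 27.0 in PKM2 KO, 89.8, 84.6 and 94.3 in vehicle and 85.0, 82.0 and 88.8 in TEPP-46. Psmd3, a lid subunit, was at 26.0, 24.0 and 22.1 RPKM in PKM2 WT libraries, 22.9 and 22.9 in PKM2 KO, 76.9, 75.6 and 82.4 in vehicle and 70.1, 70.1 and 72.5 in TEPP-46. Psmd1 and Psmd3 came next, each with a log2 fold change of 1.67. The 11 non-ATPase subunits had a median log2 fold change of 1.20, the 7 alpha ring genes 0.97 and the 7 constitutive beta ring genes 1.18. Psmc3ip, which shares only the symbol pattern, was at 5.46, 3.61 and 4.46 RPKM in PKM2 WT libraries and 20.9, 16.4 and 21.1 in vehicle, with a log2 fold change of 1.90.

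A few genes of the core and the regulatory particle rose far less than the rest; they were singled out after their values were seen. Psmb1, a beta ring subunit without an active site, was at 160, 158 and 158 RPKM in PKM2 WT libraries, 148 and 145 in PKM2 KO, 189, 201 and 196 in vehicle and 176, 193 and 188 in TEPP-46. It was the highest core gene of PKM2 WT, and its log2 fold change of 0.30 was the smallest in the core. The chaperones of regulatory particle assembly Psmd5 and Psmd10 rose by 0.30 and 0.21 on the log2 scale, whereas the third, Psmd9, rose by 1.07. The ubiquitin receptor Psmd4 rose by 0.57 and the lid subunit Psmd8 by 0.44. Psmd10 was at 20.6, 19.7 and 20.1 RPKM in PKM2 WT libraries and 23.1, 23.0 and 24.1 in vehicle, so that the groups did not overlap at this small distance.

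**Figure D2:**
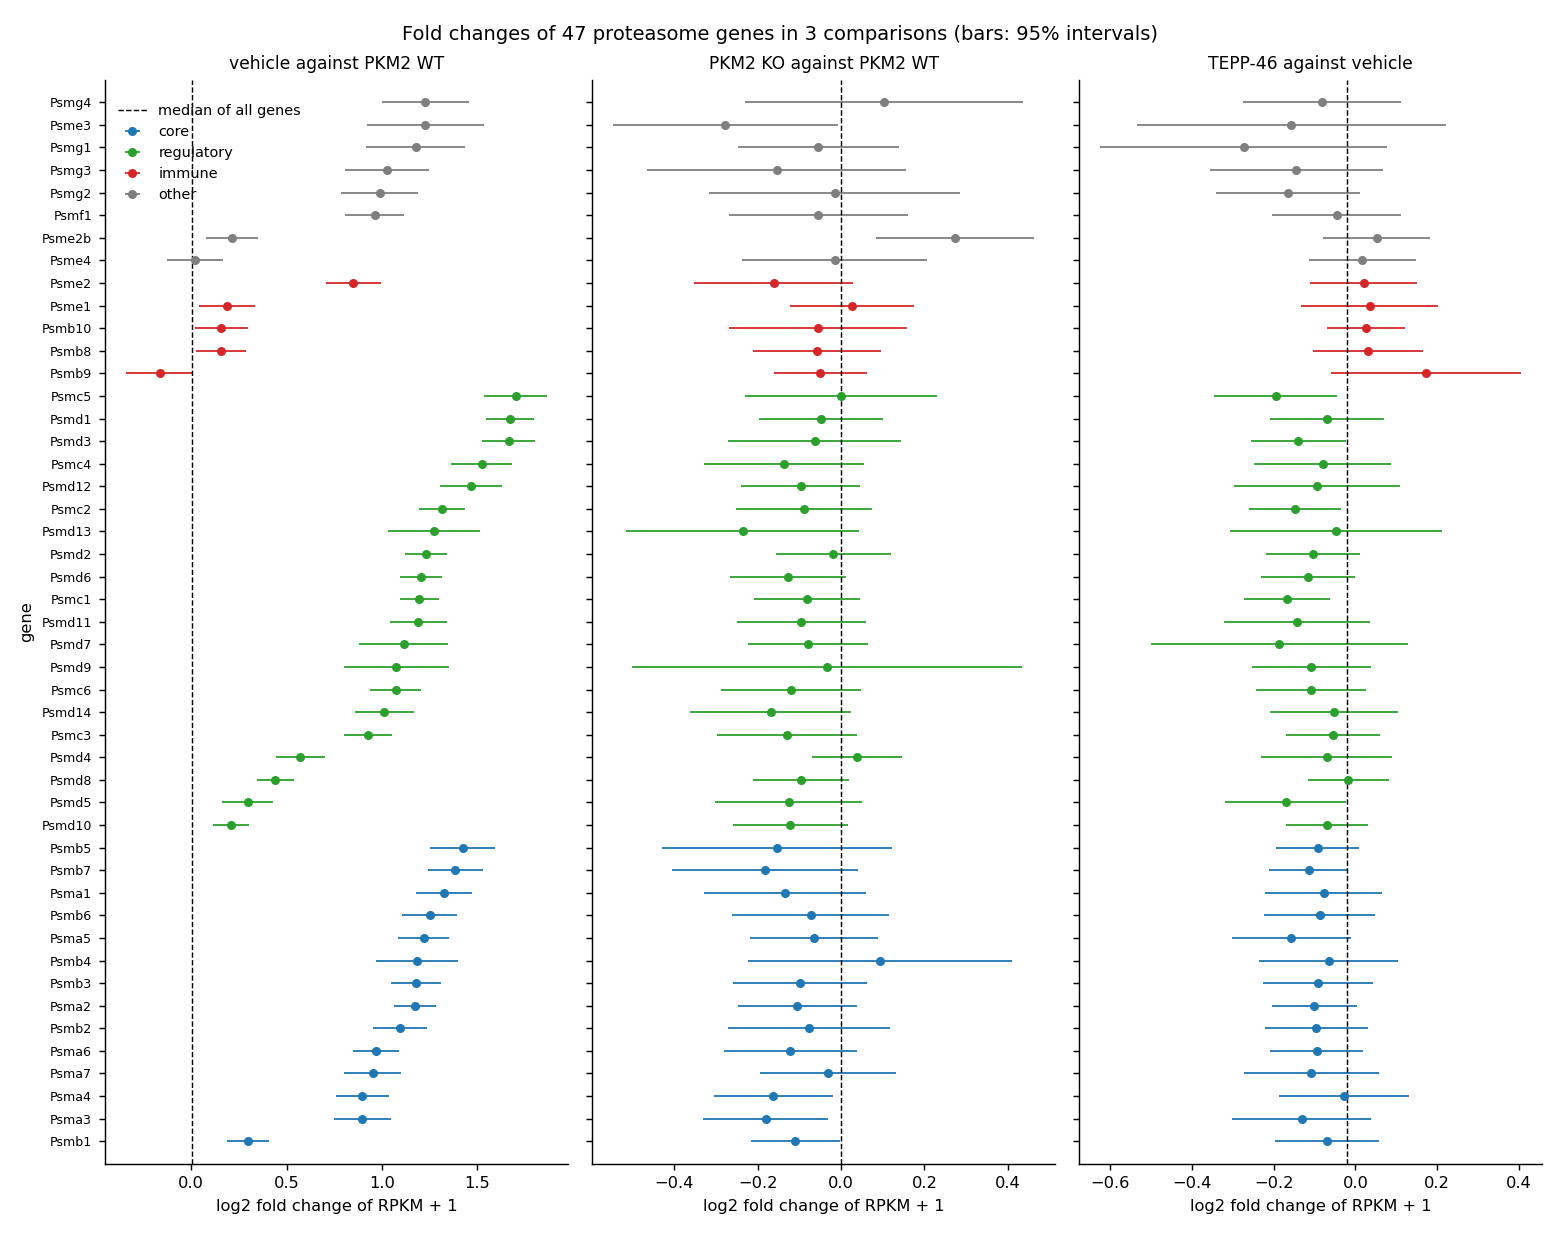
Log2 fold change on the log2(RPKM + 1) scale of each proteasome gene, by class, for vehicle against PKM2 WT, PKM2 KO against PKM2 WT and TEPP-46 against vehicle, with 95% intervals from limma. Core and regulatory genes spread from 0.21 to 1.70 in the first comparison, and the immune genes lie near 0 apart from Psme2 at 0.85, with Psmb8, Psmb10 and Psme1 below 0 under quantile normalization; in the other comparisons no gene passed the threshold.

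The constitutive and immune catalytic subunits form pairs that occupy the same place in the core, and the level of each pair was read in every library. On GRCm38, Psmb8 (chr17:34197721-34201454, plus strand) and Psmb9 (chr17:34181987-34187764, minus strand) lie close together in the MHC region, and Psmb10 lies at chr8:105935735-105938444 on the minus strand. The constitutive partners lie apart from them and from each other, Psmb5 at chr14:54614119-54618022 on the minus strand, Psmb6 at chr11:70525367-70527858 on the plus strand and Psmb7 at chr2:38588036-38644087 on the minus strand. Sequence before the RefSeq start is shown for 3 of these genes as examples of where known elements match. The sequences are those of RefSeq on GRCm38.p6, in the direction of transcription. The Psmb8 window lies 107 to 78 bases before its RefSeq start and inside the gene span of the GENCODE annotation given above, which begins further upstream. TGANNNNGC, where N is any base, was used as a loose pattern for the antioxidant response element, through which Nfe2l1 and Nfe2l2 are known to act. Capitals mark a match to it in Psmb5 (chr14:54618023-54618245, minus strand) and Psmb6 (chr11:70525107-70525356, plus strand). In Psmb8 (chr17:34198088-34198117, plus strand) they mark a match to the interferon gamma activated site TTCNNNGAA.
Psmb5: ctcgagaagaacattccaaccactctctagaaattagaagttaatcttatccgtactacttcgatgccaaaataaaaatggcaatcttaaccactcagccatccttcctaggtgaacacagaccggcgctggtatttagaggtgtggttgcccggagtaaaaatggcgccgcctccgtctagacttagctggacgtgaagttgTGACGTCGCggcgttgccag
Psmb6: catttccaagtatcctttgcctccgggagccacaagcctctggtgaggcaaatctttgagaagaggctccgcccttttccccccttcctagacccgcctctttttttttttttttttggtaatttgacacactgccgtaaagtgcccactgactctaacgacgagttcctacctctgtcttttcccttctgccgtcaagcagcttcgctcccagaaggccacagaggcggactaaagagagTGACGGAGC
Psmb8: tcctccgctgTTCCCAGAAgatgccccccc

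Motifs were searched on both strands from 250 bases before to 50 after the start, for the 40 of 47 genes with a RefSeq promoter. The loose antioxidant pattern TGANNNNGC was in 22 of the 40 (55.0%) and in 45.0% of all 27025 genes with a promoter. It was in 8 of the 11 core genes (72.7%), Psmb5 and Psmb6 among them, and in 3 of the 5 immune genes (60.0%), Psmb8, Psmb9 and Psme2, so that both partners of 2 catalytic pairs held it. Psmb10 had no match, and Psmb7 was not among the 40. The interferon gamma activated site TTCNNNGAA was in 3 of the 40 (7.5%) against 9.55% of all genes, and Psmb8 was its only holder among the 5 immune genes. The interferon-stimulated element (GAAA, any pair of bases, GAAA) was in 5 of the 40 (12.5%) against 3.99% of all genes, with Psme1 the only immune gene. The CCAAT box was in 13 of the 40 (32.5%) against 41.1% of all genes. A match says only that the letters are there. Each motif was counted by itself, whether or not it overlapped another.

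Psmb5 and Psmb8 carry the chymotrypsin-like site of the constitutive and the immune core. Psmb5 was at 57.6, 47.9 and 46.1 RPKM in PKM2 WT libraries, 44.7 and 45.6 in PKM2 KO, 132, 141 and 137 in vehicle and 126, 130 and 129 in TEPP-46. Psmb8 was at 186, 185 and 175 RPKM in PKM2 WT libraries, 168 and 182 in PKM2 KO, 195, 210 and 204 in vehicle and 203, 200 and 220 in TEPP-46. Psmb5 was thus far higher in every drug library than in any genotype library, while Psmb8 was above them by a small margin. Vehicle against PKM2 WT, Psmb5 rose by 1.42 ± 0.08 (SE) on the log2 scale (limma adjusted p = 1.49e-07) and Psmb8 by 0.16 ± 0.06 (adjusted p = 0.0312), with the log2 fold change of Psmb8 at −0.10 under quantile normalization. Its direction held under median-ratio scaling and scaling without 7SL and 7SK, at 0.14 and 0.16, but the call did not (adjusted p = 0.0602 and 0.0540). The call was also lost without PKM2 WT replicate 3 (adjusted p = 0.0896), vehicle replicate 2 (0.0992) or vehicle replicate 3 (0.0707).

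Psmb6 carries the site that cuts after acidic residues in the constitutive core, and Psmb9 takes its place in the immune core. Psmb6 was at 120, 106 and 106 RPKM in PKM2 WT libraries, 102 and 107 in PKM2 KO, 253, 264 and 276 in vehicle and 248, 238 and 260 in TEPP-46. Psmb9 was at 88.7, 85.6 and 86.3 RPKM in PKM2 WT libraries, 84.2 and 83.5 in PKM2 KO, 74.2, 85.7 and 72.7 in vehicle and 83.7, 97.1 and 81.9 in TEPP-46. Psmb6 separated the experiments without overlap, and Psmb9 overlapped between the experiments, the only catalytic subunit of the 6 to do so. Psmb6 rose by 1.25 on the log2 scale (limma adjusted p = 1.09e-07) and Psmb9 had a log2 fold change of −0.17 (adjusted p = 0.0810), which did not pass. Psmb9 passed without vehicle replicate 2, at −0.24 (adjusted p = 0.0176), and without TEPP-46 replicate 2, which changes only the shared spread (adjusted p = 0.0398).

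Psmb7 and Psmb10 carry the trypsin-like site. Psmb7 was at 58.2, 50.4 and 49.4 RPKM in PKM2 WT libraries, 47.1 and 45.2 in PKM2 KO, 138, 137 and 141 in vehicle and 124, 131 and 129 in TEPP-46. Psmb10 was at 97.5, 94.2 and 85.6 RPKM in PKM2 WT libraries, 84.0 and 94.0 in PKM2 KO, 102, 106 and 101 in vehicle and 105, 107 and 104 in TEPP-46. Both were higher in every drug library than in any genotype library, by 1.39 on the log2 scale for Psmb7 in vehicle against PKM2 WT (limma adjusted p = 5.67e-08) and by 0.16 for Psmb10 (adjusted p = 0.0394), which turned to −0.10 under quantile normalization. The call of Psmb10 was lost when any of 6 libraries was left out: PKM2 WT replicate 2 or 3, any vehicle replicate or TEPP-46 replicate 1, with adjusted p from 0.0533 to 0.129.

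**Figure D3:**
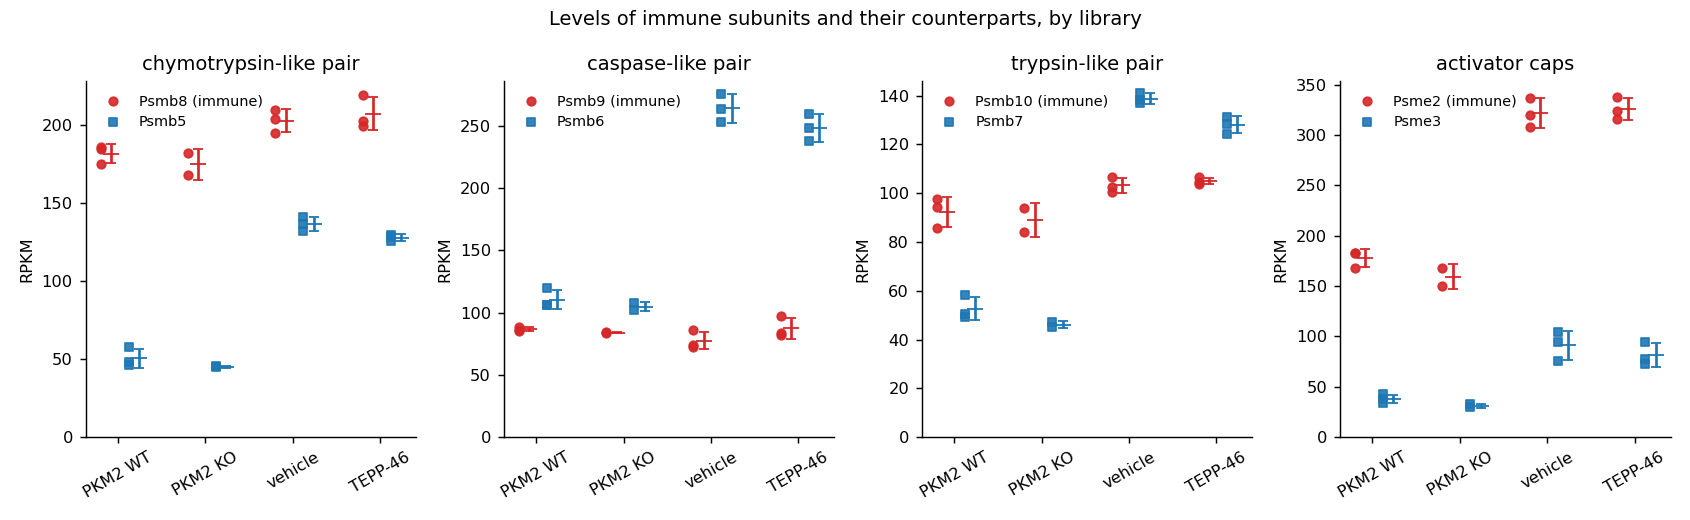
RPKM of the 3 constitutive catalytic subunits and of their immune counterparts in each of the 11 libraries, by group, with the group mean as a line. A further panel shows Psme2 and Psme3. Psmb5, Psmb6 and Psmb7 sit at 44.7 to 120 RPKM in the genotype libraries and at 124 to 276 in the drug libraries, while Psmb8, Psmb9 and Psmb10 differ little between the experiments.

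Ratios inside a library do not depend on how the library was scaled. The ratio of Psmb8 to Psmb5 was 3.23, 3.85 and 3.79 in PKM2 WT, 3.75 and 3.99 in PKM2 KO, 1.48, 1.49 and 1.49 in vehicle and 1.61, 1.54 and 1.71 in TEPP-46. Psmb8 was the higher of the pair in all 11 libraries. The ratio of Psmb10 to Psmb7 was 1.68, 1.87 and 1.73 in PKM2 WT, 1.78 and 2.08 in PKM2 KO, 0.740, 0.778 and 0.713 in vehicle and 0.841, 0.811 and 0.808 in TEPP-46. Here the order within the pair changed, with Psmb10 above Psmb7 in the genotype libraries and below it in those of the drug experiment. The ratio of Psmb9 to Psmb6 was 0.787 ± 0.0397 (SD, n = 3) in PKM2 WT libraries, 0.800 ± 0.0320 (SD, n = 2) in PKM2 KO libraries, 0.294 ± 0.0307 (SD, n = 3) in vehicle and 0.354 ± 0.0489 (SD, n = 3) in TEPP-46. Psmb9 was the lower of its pair throughout. Vehicle against PKM2 WT, the ratios fell by 1.28 for Psmb8 to Psmb5, by 1.43 for Psmb9 to Psmb6 and by 1.24 for Psmb10 to Psmb7 on the log2 scale, without overlap in any pair. Each had p = 0.1 in an exact two-sided permutation test, the smallest that 3 against 3 libraries allow, and 0.125 adjusted over 5 ratios, so none could pass 0.05.

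**Figure D4:**
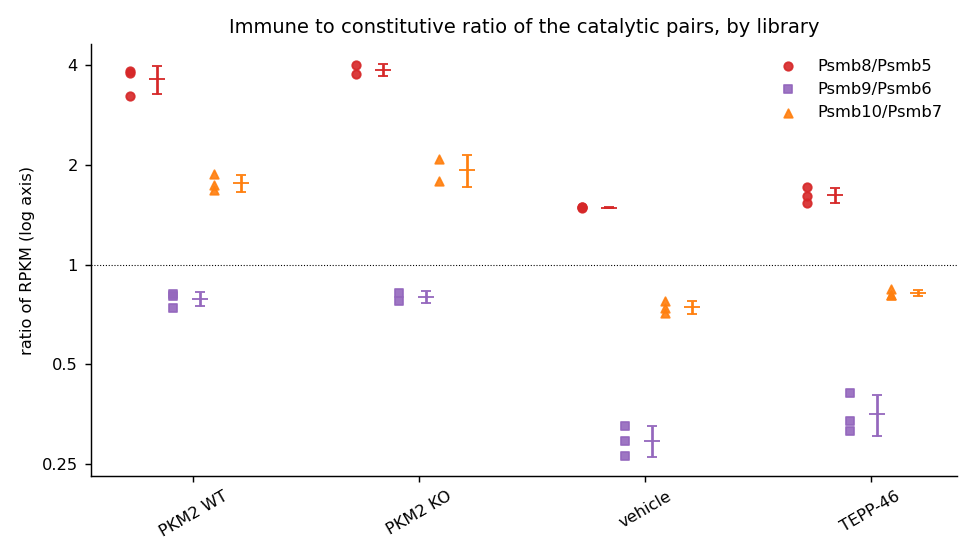
Ratio of RPKM of each immune catalytic subunit to its constitutive counterpart in each of the 11 libraries on a log axis. Lines show the group mean and bars the SD (n = 2 in PKM2 KO and 3 in the other groups). The Psmb8 to Psmb5 ratio lies between 3.23 and 3.99 in the genotype libraries and between 1.48 and 1.71 in the drug libraries.

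The PA28 activator went apart within itself. Psme1 (chr14:55578123-55581529, plus strand), its alpha subunit, was at 283, 274 and 299 RPKM in PKM2 WT libraries, 286 and 295 in PKM2 KO, 318, 316 and 341 in vehicle and 328, 313 and 359 in TEPP-46. Psme2 (chr14:55587441-55591113, minus strand), the beta subunit, was at 183, 183 and 168 RPKM in PKM2 WT libraries, 150 and 168 in PKM2 KO, 308, 320 and 337 in vehicle and 316, 324 and 338 in TEPP-46. The subunits stood near equal level in the drug libraries, and Psme1 was the higher in every genotype library. Vehicle against PKM2 WT, Psme2 rose by 0.85 on the log2 scale (limma adjusted p = 1.26e-06), and Psme1 by 0.19 (adjusted p = 0.0230), which turned to −0.078 under quantile normalization. The call of Psme1 was lost without PKM2 WT replicate 1 (adjusted p = 0.0505), PKM2 WT replicate 2 (0.0772) or vehicle replicate 3 (0.0834). Psme2b, a near-identical copy that can share reads with Psme2, was at 30.2, 28.3 and 28.8 RPKM in PKM2 WT libraries and 34.6, 34.5 and 32.5 in vehicle, so that the split between the copies is uncertain.

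The caps outside the immunoproteasome set did not move alike. Psme3, the nuclear activator related to PA28, was at 37.8, 34.2 and 42.4 RPKM in PKM2 WT libraries, 32.6 and 29.8 in PKM2 KO, 94.0, 75.4 and 104 in vehicle and 77.5, 72.2 and 94.8 in TEPP-46. Psme4, the single-chain activator PA200, was at 18.7, 20.0 and 21.8 RPKM in PKM2 WT libraries, 20.8 and 19.1 in PKM2 KO, 21.4, 20.1 and 19.7 in vehicle and 20.2, 21.6 and 20.2 in TEPP-46. Psme3 separated the experiments and Psme4 lay in the same range in all 4 groups. Vehicle against PKM2 WT, Psme3 rose by 1.23 on the log2 scale (limma adjusted p = 2.02e-05), and Psme4 had a log2 fold change of 0.02 with a 95% interval from −0.13 to 0.17 (adjusted p = 0.798). The ratio of Psme1 to Psme3 was 7.51 ± 0.478 (SD, n = 3) in PKM2 WT libraries and 3.62 ± 0.499 (SD, n = 3) in vehicle. The inhibitor Psmf1 rose by 0.96, and the assembly chaperones Psmg1, Psmg2, Psmg3 and Psmg4 rose by 1.18, 0.99, 1.02 and 1.23 on the log2 scale. Psmg1 went from 4.80, 4.47 and 4.65 RPKM in PKM2 WT libraries to 11.9, 10.3 and 13.2 in vehicle, which keeps it the lowest of these genes.

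Loss of PKM2 was read in PKM2 KO against PKM2 WT. No gene of the 47 passed the threshold in either direction, where 0.018% of all genes tested were called higher and 0.0808% lower, and the smallest adjusted p was 0.513 (limma). At an unadjusted p under 0.05, 1 gene was higher (Psme2b) and 4 were lower (Psma3, Psma4, Psmb1 and Psme3), beside 2.41% and 5.53% of all genes tested. The fitted values leaned down by small amounts: 42 of 47 genes (89.4%) were below 0, as were 49.7% of all genes tested, with a median log2 fold change of −0.09 (0.941-fold). Below 0 were 13 of 14 core genes (median −0.11), 19 of 20 regulatory genes (median −0.10), 4 of 5 immune genes (median −0.05) and 6 of 8 others. These medians moved both ways under other settings. That of the core was −0.068 without PKM2 WT replicate 1 and −0.059 under quantile normalization. It was −0.13 without PKM2 WT replicate 3 and with a replicate block. That of the regulatory genes was −0.065 under quantile normalization and with 7SL and 7SK left out of the total, and −0.106 without PKM2 WT replicate 2. The immune median turned to 0.00083 without PKM2 KO replicate 1 and was −0.115 without PKM2 KO replicate 2. The 2 PKM2 KO libraries lay below all 3 PKM2 WT libraries in 24 genes and above them in 2, Psmd4 and Psme2b, beside 14.5% and 10.2% of all genes tested.

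The individual genes showed how small these distances were. Psme3, with values given above, had a log2 fold change of −0.28 with a 95% interval from −0.55 to −0.01 (limma adjusted p = 0.627), the lowest of the 47. The lid subunit Psmd13 was at 63.2, 59.3 and 50.1 RPKM in PKM2 WT libraries and 49.4 and 47.6 in PKM2 KO, so that its groups just missed each other; its log2 fold change was −0.24. Psmb7 followed at −0.18. Psmc3ip, outside the proteasome, was at 2.54 and 2.89 RPKM in PKM2 KO and had a log2 fold change of −0.56 (adjusted p = 0.541). Psme2b, at 33.2 and 37.6 RPKM in PKM2 KO, had the highest log2 fold change, 0.27 with a 95% interval from 0.09 to 0.46, while Psme2 itself stood at −0.16. Psmg4 stood at 0.10, the beta subunit Psmb4 at 0.09 and Psmd4 at 0.04. The immune catalytic genes Psmb8, Psmb9 and Psmb10 had log2 fold changes of −0.06, −0.05 and −0.05, with 95% intervals from −0.21 to 0.10, from −0.16 to 0.06 and from −0.27 to 0.16; under quantile normalization Psmb8 was at 0.0018. Their counterparts Psmb5 and Psmb6 stood at −0.15 and −0.07. Psme1 stood at 0.03 and turned to −0.0019 without PKM2 WT replicate 2. The cap Psme4 and the chaperone Psmg2 both stood at −0.02 and turned to values above 0 under another scaling, the inhibitor Psmf1 and the chaperone Psmg1 both stood at −0.05, and Psmg3 stood at −0.15. The 3 catalytic ratios overlapped between the genotypes. The Psme1 to Psme3 ratio, at 8.77 and 9.89 in PKM2 KO and between 7.05 and 8.0 in PKM2 WT, did not. Its exact two-sided permutation p was 0.2 (adjusted 0.75), the smallest that 2 against 3 libraries allow, so it could not pass 0.05.

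TEPP-46 was read against vehicle. No gene of the 47 passed the threshold in either direction, nor did any of all genes tested (0% higher and 0% lower), and the smallest adjusted p among the 47 was 0.372 (limma), that of the ATPase Psmc1. At an unadjusted p under 0.05, 8 genes were lower and 0 higher, beside 4.68% and 4.75% of all genes tested. The 8 were Psma5 and Psmb7 of the core and Psmc1, Psmc2, Psmc5, Psmd3, Psmd5 and Psmd6 of the regulatory particle and its chaperones. All 34 core and regulatory genes had fitted values below 0, with a median log2 fold change of −0.10, and all 5 immune genes had values above 0, with a median of 0.03 that turned to −0.0060 without TEPP-46 replicate 3. Over all genes tested 56.6% were below 0 and the median was −0.02. The 3 TEPP-46 libraries lay below all 3 vehicle libraries in 16 of the 47 genes and above them in none, beside 7.71% and 7.61% of all genes tested.

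Psmc1 was at 127, 131 and 135 RPKM in vehicle and 113, 118 and 118 in TEPP-46, a log2 fold change of −0.17 with a 95% interval from −0.27 to −0.06. Psmc5 had a log2 fold change of −0.20 and did not overlap between the groups either. The chaperone Psmd5 was at 23.7, 21.2 and 23.6 RPKM in vehicle and 20.5, 19.5 and 20.4 in TEPP-46, a log2 fold change of −0.17. The lid subunit Psmd7, at 54.9, 51.9 and 66.8 RPKM in vehicle and 48.8, 45.6 and 57.6 in TEPP-46, had a log2 fold change of −0.19, and its groups overlapped. Psmg1 had the lowest value, −0.27 with a 95% interval from −0.62 to 0.08, and its libraries overlapped as well, at 8.99, 8.35 and 11.6 RPKM in TEPP-46. Psmg2, Psmg3 and Psmg4 stood at −0.17, −0.14 and −0.08. At the other end stood Psmb9 at 0.17 with a 95% interval from −0.06 to 0.41, Psmc3ip at 0.06, Psme2b at 0.05 and Psme1 at 0.03. Psmb8, Psmb10 and Psme2 stood at 0.03, 0.03 and 0.02, the caps Psme3 and Psme4 at −0.16 and 0.02 and the inhibitor Psmf1 at −0.05.

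The catalytic ratios were higher with TEPP-46 by 0.12 on the log2 scale for Psmb8 to Psmb5 and by 0.14 for Psmb10 to Psmb7, without overlap in both, and by 0.26 for Psmb9 to Psmb6, with overlap. The exact two-sided permutation p was 0.1, 0.1 and 0.2, and 0.25 for each when adjusted over 5 ratios. Psmb5 and Psmb7 had log2 fold changes of −0.09 and −0.11 against vehicle, further from 0 than Psmb8 and Psmb10, which both stood at 0.03. In the remaining pair Psmb6 stood at −0.09 and Psmb9 at 0.17, so that there the immune partner was further from 0. Ifng, which lay at 1014 to 1083 RPKM in vehicle, was at 797 to 908 in TEPP-46.

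The rest of the pathway was read from lists of genes without a Psm symbol. Of 11 accessory subunits and assembly factors with a value, 10 were higher in vehicle than in PKM2 WT and 0 lower (median log2 fold change 1.04), where 38.6% and 36.7% of all genes tested were. Pomp, the maturation factor of the core, was at 76.4, 62.2 and 69.4 RPKM in PKM2 WT libraries, 58.2 and 72.6 in PKM2 KO, 205, 208 and 219.6 in vehicle and 181, 204 and 191 in TEPP-46. The ubiquitin receptor Adrm1 rose by 1.24 on the log2 scale, the thioredoxin-like Txnl1 by 1.27, the deubiquitinase Usp14 by 1.04 and Pomp by 1.60. Of 14 ubiquitin genes, shuttles and p97 factors, 10 were higher and 0 lower (median 0.34), among them the unfoldase Vcp at 1.11, its cofactor Nploc4 at 1.15 and the shuttle Ubqln1 at 0.63.

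Among genes that regulate or use the proteasome, some were higher and others lower, as were 38.6% and 36.7% of all genes tested, so that the counts say nothing particular of these small lists. Of 8 transcriptional regulators of proteasome genes, 2 were higher in vehicle and 4 lower. Nfe2l1, known to induce proteasome genes when the proteasome is inhibited, rose by 0.46 on the log2 scale, and its relative Nfe2l2 fell by 0.52; Foxo4 fell by 0.59 and Nfyc rose by 0.49. Of 11 MHC class I processing partners, 3 were higher and 4 lower: the chaperones Pdia3 and Calr rose by 1.21 and 1.02, and B2m and H2-K1, which encode the class I light chain and a heavy chain, fell by 0.93 and 0.52. Of 10 genes of interferon gamma signalling, 2 were higher and 5 lower. Ifng rose by 5.42 and Socs1, a feedback inhibitor, by 2.32, whereas the kinases Jak2 and Jak1 fell by 1.33 and 0.79.

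In PKM2 KO against PKM2 WT and in TEPP-46 against vehicle, no gene of these 5 lists passed the threshold. With TEPP-46, 10 of 11 class I partners and 9 of 10 interferon gamma signalling genes had values above 0, with medians of 0.15 and 0.16, beside 42.9% of all genes tested. The signalling gene below 0 was Ifng itself, with a log2 fold change of −0.27 (limma adjusted p = 0.372). B2m was at 2584, 2603 and 2794 RPKM in vehicle and 3376, 3457 and 3579 in TEPP-46, a log2 fold change of 0.38 (limma adjusted p = 0.319) without overlap. H2-K1 stood at 0.35 (adjusted p = 0.327). In PKM2 KO, the proteasome-bound deubiquitinase Uchl5 stood at −0.21 (adjusted p = 0.551). The authors' deposited tables, which list 11 and 24 genes, hold none of the 48 genes.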

How the data were processed

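RNA was sequenced from cultured mouse NK cells. Reads were aligned with STAR to mm10, per the submitters' processing notes; how reads were counted was not given in the sources used here. RPKM values were deposited rounded to 2 decimals, with tables of mean ratio (fold) and p-value, quoted as the authors' own. Of 16 library columns, 11 matched a sample by name and 5 matched none and were not used. Depth is unknown, so no counting interval is given.

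The members and lists were chosen with earlier results of these data known. log2(RPKM + 1) of the 11142 genes averaging at least 1 RPKM was fitted with limma 3.58.1 (R 4.3.3), trend on, with Benjamini-Hochberg adjustment over all genes and a threshold of 0.05. The genotype and drug comparisons used their own 2 groups, and vehicle against PKM2 WT used 4 group means over 11 libraries. The method was run on simulated data whose changes were larger than any proteasome gene had in the genotype and drug comparisons. That run does not say how often changes so small would be found. Ratios were tested by exact two-sided permutation. Named were the immune genes and their counterparts, caps, inhibitor and chaperones, and the 4 highest and 4 lowest log2 fold changes per comparison, with up to 4 genes per list by smallest p; Psma3, Psma4, Psma5, Psmb1, Psmc1, Psmc2, Psmd4, Psmd6, Psmd8, Psmd9, Psmd10 and the extremes of level were named after their values were seen. One gene of the lists is not reported here. All 48 IDs matched GENCODE M21 on GRCm38, the assembly of mm10.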

Additional observations from a re-analysis of the deposited data

How the results depend on the processing

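The alternatives were other pseudocounts, filters, scalings, variance settings, a replicate block and leaving out each replicate; scaling to the sum without 7SL and 7SK was chosen after seeing the data. Counts below are over all 48 symbol matches. In vehicle against PKM2 WT, 46 were higher and 0 lower, and 40 to 46 were higher under all alternatives run. Psmb9 was called lower under quantile normalization (1 lower) and when 1 library was left out (0 to 1 lower, 1 without vehicle replicate 2 or TEPP-46 replicate 2). No call was made in PKM2 KO against PKM2 WT or in TEPP-46 against vehicle under any of them. Under quantile normalization the vehicle against PKM2 WT values turned to −0.10 for Psmb10, Psmb8 and Psme4 and −0.078 for Psme1; Psme4 ranged from −0.031 to 0.075 when 1 library was left out. The calls of Psmb8, Psmb10 and Psme1 were each lost under several alternatives, Psmb8 and Psme1 with 7SL and 7SK left out of the total. The cause was not tested.

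The log2 ratio differences in PKM2 KO against PKM2 WT ranged from −0.019 to 0.064 for Psmb9 to Psmb6 and from −0.021 to 0.27 for Psme2 to Psme3 when 1 library was left out. Values near 0 changed sign. In PKM2 KO against PKM2 WT, leaving out 1 library gave −0.13 to 0.025 for Psmb10, −0.038 to 0.23 for Psmb4, −0.11 to 0.00083 for Psmb8, −0.0019 to 0.061 for Psme1, −0.074 to 0.043 for Psme4, −0.10 to 0.072 for Psmg2 and −0.0086 to 0.17 for Psmg4. Psmb8 was 0.0018 under quantile normalization, and Psme4 and Psmg2 were 0.015 and 0.014 with 7SL and 7SK left out of the total. In TEPP-46 against vehicle it gave −0.011 to 0.057 for Psmb8, −0.065 to 0.22 for Psmc3ip, −0.021 to 0.079 for Psme1, −0.011 to 0.055 for Psme2, −0.012 to 0.049 for Psme4 and −0.10 to 0.0055 for Psmf1.

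For each library, the deviations of its log2(RPKM + 1) values from the mean of its own group were taken. Between same-numbered libraries these deviations correlated at 0.07 and −0.097 for PKM2 KO and PKM2 WT. They correlated at 0.052, 0.284 and 0.275 for TEPP-46 and vehicle, and at −0.097, 0.057 and 0.098 for vehicle and PKM2 WT. The deviations of the 2 PKM2 KO libraries mirror each other, so the genotype values say little of pairing. The numbers were not taken as pairs. With a replicate block, 0 of the 48 were called in the genotype and drug comparisons and 46 were higher in vehicle against PKM2 WT; Psme4 in PKM2 KO turned to 0.039. The deviations of each vehicle and TEPP-46 library correlated best with those of its own number, a hint from the data only.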
